A study of Sus scrofa with 4 samples.

Results

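Ribosomal proteins form the protein part of the ribosome, and the liver of 4 Chinese miniature pigs was read for them on a porcine expression array. Members were the probe sets whose target description on the array held the words ribosomal protein, without kinase, and they came to 181 of the 15383 probe sets in the deposited GCRMA table. A probe set is a group of short probes read together, and several probe sets can stand for 1 gene. Of the members, 81 were described as mitochondrial ribosomal proteins (68 genes, 52 large subunit and 29 small subunit probe sets). The other 100 are called cytosolic here (74 genes, 58 large and 42 small subunit probe sets), although 1 of them, MRPS18C, is described as mitochondrial in other words. The description named 28 members directly and 153 by similarity to a gene of another species, 78 of them highly, 70 moderately and 5 weakly similar, so the gene names are those of the array's design.

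The cytosolic ribosome translates the messages of the nuclear genome, and in the hepatocyte, which exports plasma proteins in bulk, it takes up much of the cell's biosynthetic effort. The mitochondrial ribosome is a separate machine that translates the few messages of the mitochondrial genome, all of them for subunits of the respiratory chain and the ATP synthase. Proteins of both ribosomes are encoded in the nucleus, so both are read as ordinary messenger RNA.

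There were 2 groups of 2 pigs, each with 1 male (replicate 1) and 1 female (replicate 2), and 1 array per pig. The clenbuterol group ate the β2-adrenergic agonist clenbuterol in the diet from 8 weeks of age, first 25 mg/kg, offered 2 times a day over 4 weeks, and then 50 mg/kg over 4 more weeks. The control group had that diet without clenbuterol, and all pigs started at an average of 18 kg and had their livers taken at 4 months. The labels speak of full sibs of 1 sex within a group, while the sex labels give each group both sexes, so which pigs were sibs is not settled.

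The values are log2 GCRMA values, a scale on which a difference of 1 is a doubling. The deposited columns of this table carry the group but no sex, and in each sentence below the clenbuterol values are those of arrays p105f and p134pc and the control values those of arrays p101f and p135pc. Probe sets at 4 or more on at least 2 arrays were tested, 11931 in all. Clenbuterol was set against control with limma and Benjamini-Hochberg adjustment over all 11931, and a probe set was called at an adjusted p under 0.05. Over all tested probe sets 23.8% were called, 11.4% higher and 12.4% lower, and the median difference was -0.03. The pigs were separate animals, but with 2 a group the p-values measure the spread between these 4 livers only. In whole tissue, fewer cells of a type and less RNA per cell cannot be told apart.

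Of the 181 members 167 were tested, 89 cytosolic and 78 mitochondrial. The other 14 lay below the filter, 11 of them cytosolic and 3 mitochondrial, and for RPS19 and MRPS23 this left no tested probe set. The RPS19 probe sets averaged 2.26 and 3.53 over the 4 arrays.

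Messages of the cytosolic ribosome differed little between the treated and the control livers in the GCRMA values. The median difference of the 89 tested cytosolic probe sets was -0.01, and 80 of them (89.9%) differed by less than 0.25 in either direction, against 50.9% of all tested probe sets. Only 3 were called, 1 higher and 2 lower, which is 3.37% against 23.8% over the whole array. All 3 belong to the large subunit (3 of 51), and none of the 38 small subunit probe sets was called in limma. Of the 3, a dim RPL10A probe set called lower passed the filter through its control values alone, so it had to differ. At an unadjusted p under 0.05 the count was 7 of 89, 6 in the large and 1 in the small subunit, against 39.3% of all tested probe sets. The groups did not overlap for 19 cytosolic probe sets that were higher and 26 that were lower, while they did not overlap for 68.1% of all probe sets. With the series' intensities scaled on the hybridisation spikes, the cytosolic median was 0.35 and that of all tested probe sets 0.36.

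Most cytosolic members are among the bright probe sets of the array. Their mean over the arrays had a median of 13.4, against 7.46 for all tested probe sets. Within the bright range the count stayed low: of 69 cytosolic probe sets with a mean of 12 or more, 2 (2.90%) were called, against 91 of 552 (16.5%) of all probe sets that bright. The median gap between the 2 arrays of a group was 0.05 for those 69 and 0.06 for the 552. The median size of the difference between groups was 0.06 for the 69 and 0.13 for the 552.

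**Figure D1:**
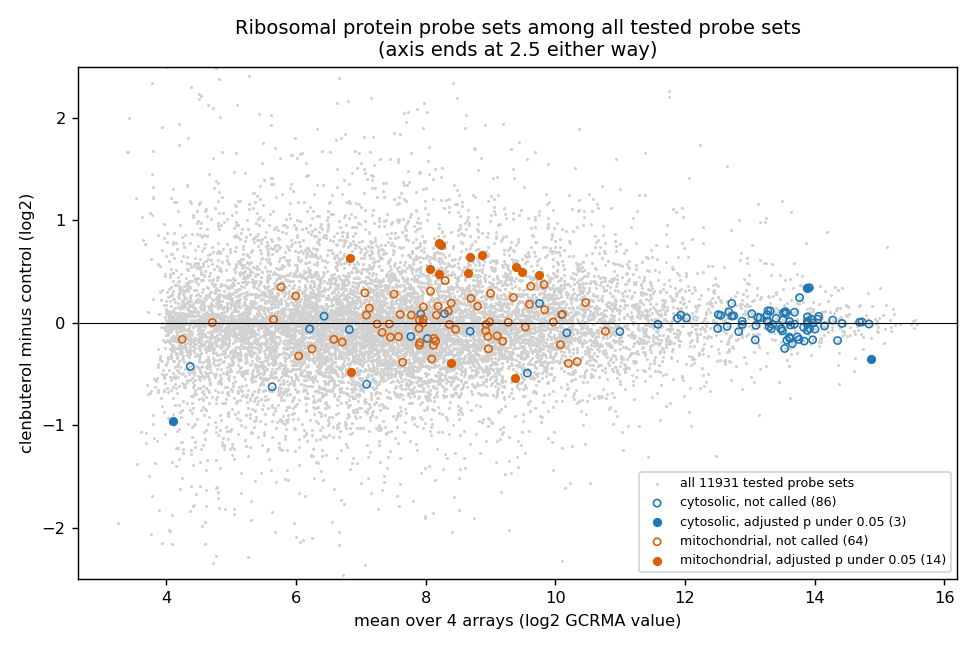
Each point is a tested probe set, with its mean over the 4 arrays (log2 GCRMA value) on the horizontal axis and clenbuterol minus control (log2) on the vertical axis, which ends at 2.5 in both directions. Cytosolic members (blue) gather at the bright end close to 0, with 3 called, and mitochondrial members (orange) spread around 8.20 with 14 called.

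In the large subunit, RPL37, a zinc-finger protein, had the brightest member probe set. It read 14.71 and 14.67 in the clenbuterol livers, against 15.01 and 15.07 in the control livers. Both treated livers were below both control livers, and the difference was -0.35 ± 0.08 (SE, n = 2 each, limma adjusted p = 0.0433). Its sign turned to 0.04 when the series' intensities were scaled on the hybridisation spikes, a scaling on which the median over all tested probe sets was 0.36, so that relative to all it was -0.32.

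RPL9 sits near the base of the ribosomal stalk. Its probe set, described by similarity to a pseudogene of RPL9, read 14.04 and 14.08 in the clenbuterol livers, against 13.71 and 13.72 in the control livers. Both treated livers were higher, by 0.34 ± 0.08 (SE, n = 2 each, limma adjusted p = 0.0435), a 1.27-fold difference. Pseudogene copies are many among cytosolic ribosomal proteins, and which copy a probe set reads was not tested.

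The third called probe set stands for RPL10A, a protein of the stalk that guides spent transfer RNA out of the ribosome. This dim probe set read 3.69 and 3.54 in the clenbuterol livers, against 4.34 and 4.82 in the control livers, a difference of -0.96 ± 0.19 (SE, n = 2 each, limma adjusted p = 0.031). It passed the filter through its control values alone, so it had to differ. The bright RPL10A probe set read 12.60 and 12.57 in the clenbuterol livers, against 12.49 and 12.54 in the control livers, and was not called (0.07 ± 0.08 SE). A further RPL10A probe set was between 2.95 and 3.06 on every array, below the filter.

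RSL24D1 carries a ribosomal protein name but, from its yeast counterpart, acts in the assembly of the large subunit, where RPL24 later takes its place. It read 9.14 and 9.50 in the clenbuterol livers, against 9.75 and 9.87 in the control livers, and the groups did not overlap. The difference of -0.49 ± 0.15 (SE, n = 2 each) missed the threshold (limma adjusted p = 0.0827). RPL13A, a protein also known from its role in silencing inflammatory messages, read 13.94 and 13.84 in the clenbuterol livers, against 13.63 and 13.66 in the control livers, and was not called either (0.24 ± 0.08 SE, limma adjusted p = 0.106).

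In the small subunit, for RPS21 and RPS13 the differences were -0.17 ± 0.09 and -0.16 ± 0.08 (SE), with adjusted p of 0.218 and 0.242, and on the spike scaling they were 0.27 and 0.21, or -0.09 and -0.15 relative to the median of all.

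Most of the remaining cytosolic members gave nearly level readings. RPS29, the brightest of the small subunit, read 14.84 and 14.82 in the clenbuterol livers, against 14.86 and 14.83 in the control livers. RPL27A read 14.79 and 14.68 in the clenbuterol livers, against 14.73 and 14.71 in the control livers, and RPS2 14.15 and 14.12, against 14.17 and 14.16. The groups overlapped for RPS29 and RPL27A, and for RPS2 both treated livers were slightly lower. The dimmest tested members were not called either, apart from RPL10A. RPL32, RPL24, RPS6, RPS28 and RPS27 each had a probe set between 4.37 and 6.82 on average. In that order, these probe sets differed by -0.43, -0.63, -0.06, 0.06 and -0.07.

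RPS6 is the small subunit protein that S6 kinases phosphorylate when growth signals are present. Its bright probe set read 13.30 and 13.24 in the clenbuterol livers, against 13.30 and 13.22 in the control livers (0.01 ± 0.08 SE), so the groups overlapped. The 4 tested probe sets described as S6 kinases were not called either, with a median difference of 0.06. They were matched by name only and were dim, between 3.97 and 5.99 on every array. The array reads messages and holds no measure of phosphorylation.

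RPL5 and RPL11 bind 5S ribosomal RNA and, outside the ribosome, the p53 regulator MDM2. RPL5 read 13.42 and 13.47 in the clenbuterol livers, against 13.49 and 13.52 in the control livers, and RPL11 read 13.51 and 13.41, against 13.59 and 13.49. Neither was called, with differences of -0.06 and -0.08.

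The acidic stalk proteins P1 and P2 recruit elongation factors to the ribosome. RPLP1 read 12.45 and 12.50 in the clenbuterol livers, against 12.46 and 12.60 in the control livers (-0.06 ± 0.09 SE), with overlapping groups. RPLP2 read 12.01 and 11.93 in the clenbuterol livers, against 11.92 and 11.87 in the control livers (0.07 ± 0.08 SE). Neither was called, and P0 was not found among the members by its symbol. RPS27A, which is made as a fusion with ubiquitin, read 13.62 and 13.61 in the clenbuterol livers, against 13.59 and 13.62 in the control livers (0.01 ± 0.08 SE).

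In the GCRMA values, 14 of the 78 tested mitochondrial probe sets (17.9%) were called, 11 higher and 3 lower. Over the whole array 23.8% were called, 11.4% higher and 12.4% lower, and the contrast of these shares was not tested. On at least 1 probe set, 10 mitochondrial genes were called higher and 3 lower. The 14 stand for 12 genes, since MRPL33 had 1 of each and MRPL43 had 2 that were higher. The higher ones ranged from 1.38- to 1.72-fold and the lower ones from 1.31- to 1.45-fold lower. By subunit, 12 of 51 large subunit probe sets were called (23.5%, 10 higher and 2 lower) and 2 of 27 small subunit ones (7.41%, 1 higher and 1 lower). The difference between the subunits was not tested.

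The median difference over the 78 was 0.02, with quartiles at -0.15 and 0.26. Their median size was 0.18, against 0.24 for all tested probe sets. At an unadjusted p under 0.05 there were 26 of 78 (33.3%), against 39.3% of all tested probe sets. The groups did not overlap for 31 higher and 21 lower, together 66.7%, against 68.1%. No mitochondrial member with a mean under 6 was called: all 14 lie among the 73 with a mean from 6 to 11 (19.2%), where 25.7% of all tested probe sets were called.

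**Figure D2:**
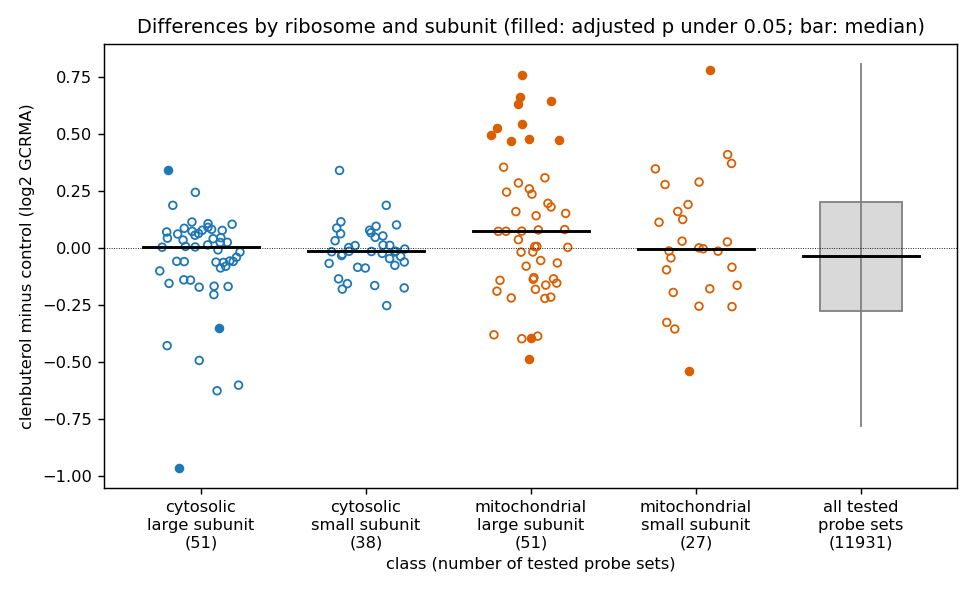
Clenbuterol minus control (log2 GCRMA) is plotted for each tested probe set in 4 classes, with filled points at an adjusted p under 0.05 and a bar at the median. For all 11931 tested probe sets the box spans the quartiles and the line percentiles 5 to 95. Cytosolic points crowd around 0 in both subunits, and the mitochondrial large subunit holds 10 of the 11 higher calls among mitochondrial members.

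MRPS11, a protein of the platform of the mitochondrial small subunit, had the largest higher difference of all members. It read 8.67 and 8.50 in the clenbuterol livers, against 7.77 and 7.85 in the control livers. Both treated livers stood clear of both control livers, by 0.78 ± 0.10 (SE, n = 2 each, limma adjusted p = 0.0131), a 1.72-fold difference.

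MRPL2, near the catalytic centre of the mitochondrial large subunit, was read by 2 probe sets. The one with transcript number 2 read 8.60 and 8.62 in the clenbuterol livers, against 7.79 and 7.90 in the control livers (0.76 ± 0.09 SE, limma adjusted p = 0.0107, n = 2 each). The one with transcript number 1 read 8.91 and 8.87 in the clenbuterol livers, against 8.94 and 9.11 in the control livers (-0.13 ± 0.10 SE) and was not called. The transcript number is the one after the second dot of the probe set's ID, which numbers the transcripts within a sequence cluster.

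MRPL1, a protein of the mitochondrial counterpart of the stalk that RPL10A belongs to, read 9.17 and 9.23 in the clenbuterol livers, against 8.59 and 8.49 in the control livers. Both treated livers were higher, by 0.67 ± 0.09 (SE, n = 2 each, limma adjusted p = 0.0138). MRPL4, which lines the tunnel through which the new protein leaves, read 9.03 and 8.99 in the clenbuterol livers, against 8.23 and 8.50 in the control livers, a difference of 0.64 ± 0.12 (SE, limma adjusted p = 0.0284, n = 2 each).

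MRPL3, a core protein of the large subunit, read 9.60 and 9.74 on its transcript number 2 probe set in the clenbuterol livers, against 9.06 and 9.20 in the control livers (0.54 ± 0.10 SE, limma adjusted p = 0.028, n = 2 each). Its other probe set read 10.08 and 10.21 in the clenbuterol livers, against 10.03 and 10.11 in the control livers, and was not called. MRPL20, which has a bacterial counterpart in large subunit assembly, was 0.50 ± 0.09 higher (SE), with 9.66 and 9.81 in the clenbuterol livers, against 9.22 and 9.25 in the control livers (limma adjusted p = 0.0286, n = 2 each). For both genes the called probe set separated the groups.

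MRPL39, MRPL42 and MRPL43 are proteins of the mitochondrial ribosome without a bacterial counterpart, and all 3 were called higher. MRPL39 read 8.43 and 8.47 in the clenbuterol livers, against 7.92 and 8.03 in the control livers, and MRPL42 read 9.99 and 9.98, against 9.62 and 9.41. MRPL43 was called on both of its probe sets, at 8.97 and 8.82 in the clenbuterol livers, against 8.35 and 8.48 in the control livers, and at 7.21 and 7.10, against 6.67 and 6.37. These 4 differences were 0.47 and 0.47 for MRPL39 and MRPL42 and 0.48 and 0.63 for MRPL43.

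MRPL33, a small protein of the large subunit, was called in both directions. Its transcript number 2 probe set read 8.27 and 8.38 in the clenbuterol livers, against 7.78 and 7.82 in the control livers (0.53 ± 0.09 SE, limma adjusted p = 0.0218, n = 2 each). Its transcript number 1 probe set read 6.60 and 6.60 in the clenbuterol livers, against 7.20 and 6.98 in the control livers (-0.49 ± 0.11 SE, limma adjusted p = 0.0391, n = 2 each). On both, the groups were apart, and on the spike scaling the second of these differences became 0.15, or -0.20 relative to all.

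MRPS24, a protein of the small subunit, had the lowest difference among the mitochondrial members. It read 9.12 and 9.08 in the clenbuterol livers, against 9.64 and 9.64 in the control livers, a difference of -0.54 ± 0.08 (SE, n = 2 each, limma adjusted p = 0.017). MRPL17, a large subunit protein, read 8.16 and 8.23 in the clenbuterol livers, against 8.52 and 8.67 in the control livers (-0.39 ± 0.09 SE, limma adjusted p = 0.0484, n = 2 each). Both treated livers were lower for both genes, and on the spike scaling the differences were 0.14 and 0.04, or -0.21 and -0.32 relative to all.

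**Figure D3:**
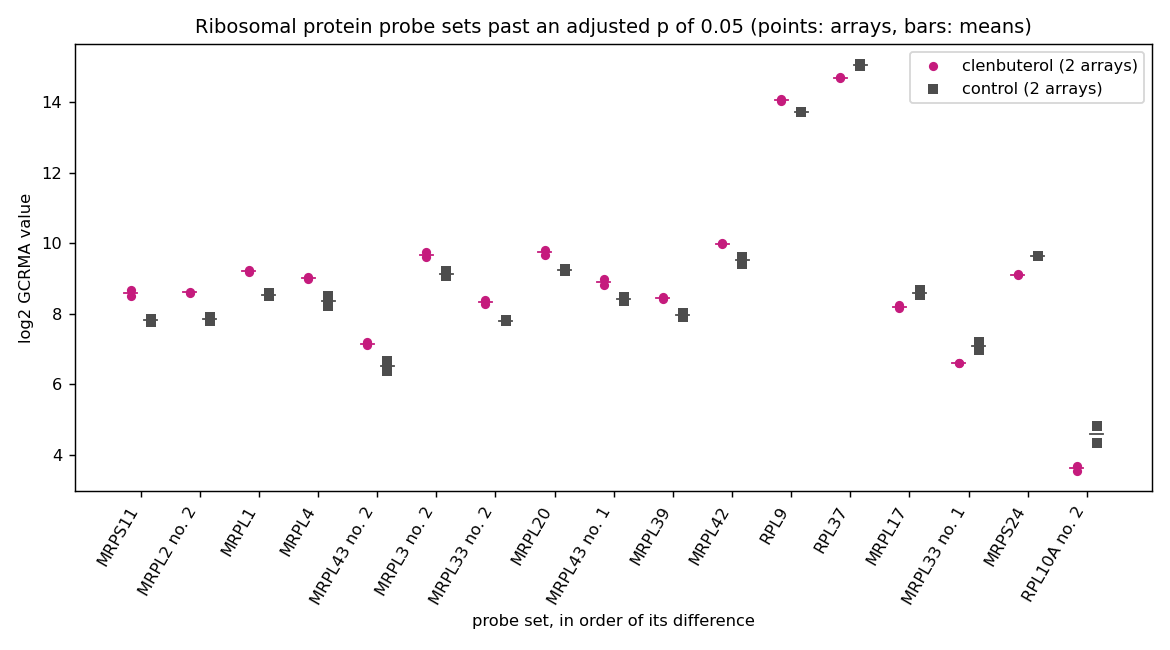
Log2 GCRMA values of each array are given for the 17 called ribosomal protein probe sets, in order of their difference, with the clenbuterol arrays as circles left of the control arrays as squares and bars at the means. The label gives the transcript number of the ID where a gene has more than 1 probe set. The groups do not overlap in any of the 17, which selection by a small p favours, nor in 68.1% of all tested probe sets. On the spike scaling RPL37, MRPL17, MRPL33 no. 1 and MRPS24 turn positive.

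Several mitochondrial members fell just outside the threshold, in both directions. MRP63 read 10.22 and 10.06 in the clenbuterol livers, against 10.52 and 10.52 in the control livers (-0.38 ± 0.09 SE, limma adjusted p = 0.0511, n = 2 each). MRPL55 read 9.84 and 9.76 in the clenbuterol livers, against 9.39 and 9.49 in the control livers, a difference of 0.36 (limma adjusted p = 0.0523, n = 2 each). MRPS16 and MRPL52 followed, with differences of -0.35 and -0.40 and adjusted p of 0.0572 and 0.0596. The dimmest were those of MRP63, MRPS2 and MRPS12, at 4.24, 4.71 and 5.65 on average, and none of the 3 was called. The brightest mitochondrial probe set, MRPS21, read 10.74 and 10.71 in the clenbuterol livers, against 10.75 and 10.88 in the control livers, and was not called.

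The called mitochondrial probe sets can be divided by transcript number. Among the 12 tested with transcript number 2 or more, 5 were called, all higher (MRPL2, MRPL33, MRPL3, MRPL4 and MRPL43), and their median difference was 0.32. Among the 66 with transcript number 1, 9 were called, 6 higher and 3 lower, and the median was 0.01. Over the whole array 19% of 1577 probe sets with number 2 or more were called higher, against 10.3% of 10334 with number 1, and 9.07% were called lower, against 12.9%. Whether these shares differ was not tested. Splitting by transcript number was chosen after the values were seen. All 5 called mitochondrial probe sets with number 2 or more have IDs that end in _a_at, and the 9 with number 1 end in plain _at. Transcript number and this ending therefore cannot be told apart in these calls.

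The balance of 3′ and 5′ readings differed between the groups for most control pairs on the array. The array holds 10 pairs of a 3′ and a 5′ probe set for 7 control genes. The log2 difference of the series' intensities, 3′ minus 5′, was lower in both clenbuterol livers than in both control livers for 7 of the 10 pairs, 3 of which are GAPDH pairs. Of the 2 actin pairs 1 was lower and the other was not. For the elongation factor eEF1A it was -0.00 in the male and 0.11 in the female clenbuterol liver, against 0.32 and 0.36 in the control livers. For 1 GAPDH pair it was 0.36 and 0.48 in the clenbuterol livers, against 1.16 and 1.46 in the control livers. The part of this in the differences between the groups, among the members and over the whole array, was not tested.

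Genes read by several probe sets show how far a call belongs to a probe set. For 25 genes at least 2 member probe sets were tested, and in 15 of them the differences had opposite signs, 9 of 15 cytosolic and 6 of 10 mitochondrial genes. Where both differences lay near 0, as for RPL31, opposite signs say little. A call was found in 5 of the 25 genes, and in 2, MRPL43 and MRPL33, on every tested probe set. The median distance between the lowest and highest difference of a gene was 0.31 for mitochondrial and 0.15 for cytosolic genes.

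Genes with 3 member probe sets were RPS18, RPL27, MRPS9 and RPL10A. The 3 RPS18 probe sets differed by -0.25, -0.04 and -0.01, and none was called. The 3 MRPS9 probe sets differed by -0.26, 0.29 and 0.35, the negative one with transcript number 1, and none was called. The 2 tested RPL27 probe sets differed by -0.06 and -0.02, and the other one was below the filter.

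**Figure D4:**
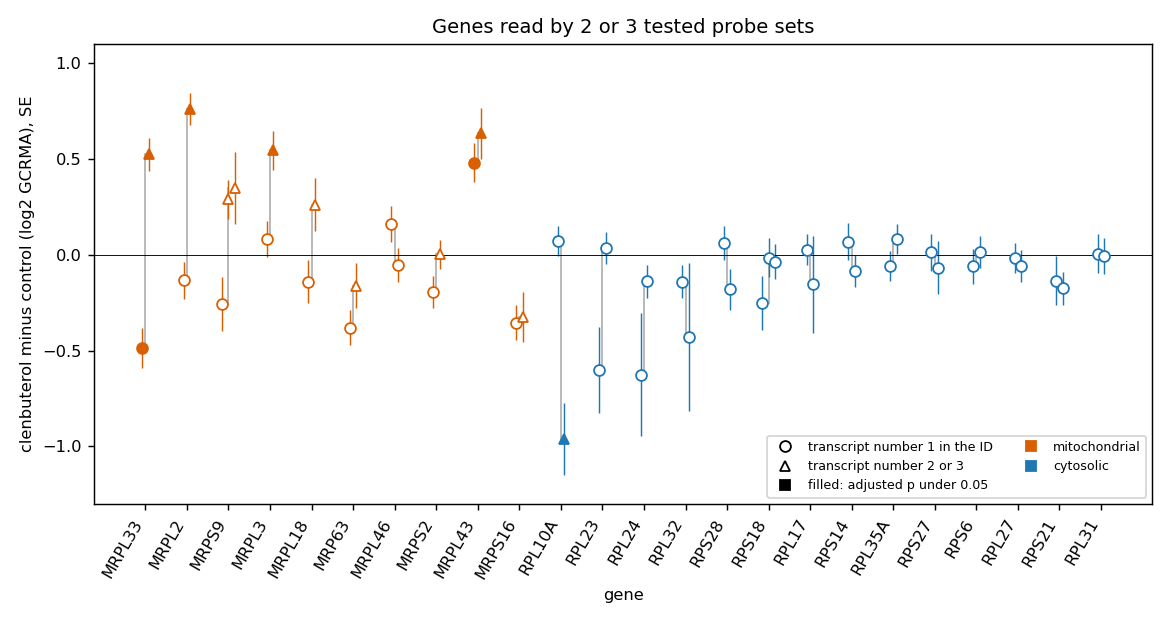
Clenbuterol minus control (log2 GCRMA) with its SE is plotted for 24 of the 25 genes with 2 or 3 tested probe sets, mitochondrial genes first, with triangles for transcript numbers above 1 and filled symbols at an adjusted p under 0.05. MRPL33 has a filled symbol on each side of 0, at 0.53 and -0.49, and the negative one is 0.15 on the spike scaling, while most cytosolic genes have all their symbols near 0.

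Among the cytosolic genes, 9 pairs of probe sets had IDs that differ only in the letter A or S, which in the array's naming marks the orientation of the target. In 3 pairs, RPL6, RPL12 and RPL13A, the A probe set passed the filter and the S probe set did not. For RPS19 neither passed. In the other 5 pairs, RPL17, RPL23, RPS6, RPL24 and RPL32, both passed, and none of these was called. For RPL23 the A probe set differed by -0.60 ± 0.22 (SE, limma adjusted p = 0.126) and the S probe set by 0.04.

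Males and females could be compared only in the series' intensities, whose columns carry the replicate number. Males against females, with treatment in the limma model, no member was called, and the smallest adjusted p was 0.655. Over all tested probe sets 1 was called (0.00838%). At an unadjusted p under 0.05 there were 0 cytosolic and 4 mitochondrial members, against 7.5% of all tested probe sets. These 4 were a dim MRPS16 probe set at -0.94 ± 0.21 (SE, log2, males minus females), MRPS36 at -0.35, MRPL36 at -0.35 and an MRPL43 probe set at 0.31. The cytosolic members with the smallest p were RPL36 at -0.32 and RPS21 at -0.27.

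Within each sex there is 1 clenbuterol and 1 control liver, so the difference has no replicate. In the log2 intensities, 22 of 89 cytosolic probe sets were higher in both pairs, 37 lower in both and 30 opposite. Of 78 mitochondrial ones 33 were higher in both, 30 lower in both and 15 opposite. All 17 probe sets called in the GCRMA values had their direction in both pairs, 12 higher and 5 lower. MRPS11 differed by 0.61 between the males and by 0.42 between the females, MRPS24 by -0.24 in each, and RPL37 by -0.25 and -0.44, while on the spike scaling the group differences of MRPS24 and RPL37 were 0.14 and 0.04. Both tables come from the same 4 arrays, so this is no second measurement.

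**Figure D5:**
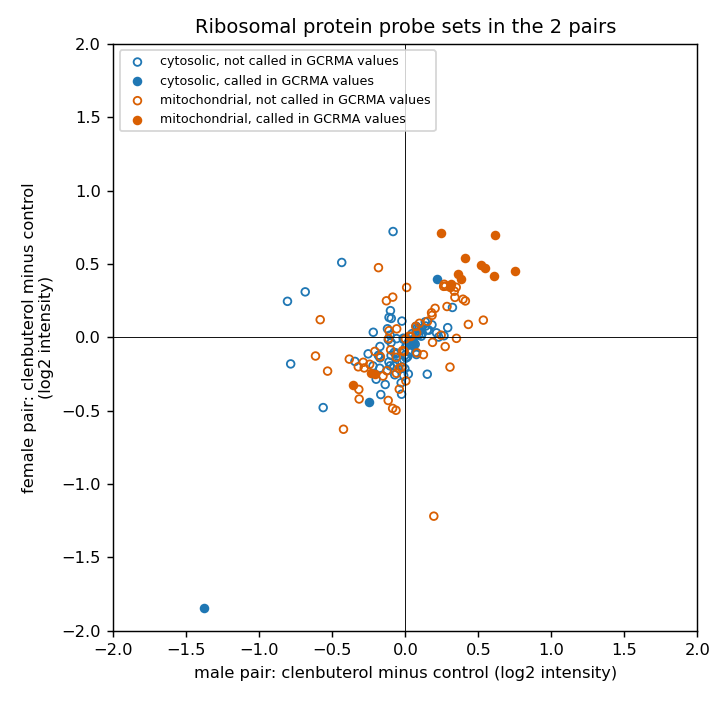
The log2 intensity difference, clenbuterol minus control, of each tested member is plotted for the female pair (vertical) against the male pair (horizontal), 1 pig per sex and group, before any spike scaling. The 17 filled points, called in the GCRMA values, lie at the upper right (12) and the lower left (5), and opposite signs are more common among cytosolic (30 of 89) than mitochondrial (15 of 78) points, a contrast that was not tested.

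In the authors' deposited table both of the authors' tools selected 691 of all 15383 probe sets, and none of the 181 members was among them. A limma p under 0.05 stood in the authors' deposited table for 12 members (6.63%), 2 of them cytosolic and 10 mitochondrial, against 15.6% of all probe sets. The column is headed p value, and whether that p was adjusted is not known here. At an unadjusted p under 0.05 the limma fit above gave 39.3% of its tested probe sets, so the 2 counts are not set against each other.

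Other genes of the translation machinery were counted from lists matched on the same descriptions. Of 41 tested probe sets for initiation factors 3 (7.32%) were called, all lower, against 23.8% of the whole array, with a list median of 0.02. One is the large scaffold subunit of initiation factor 3, listed as subunit 10 theta, at 11.32 and 11.42 in the clenbuterol livers, against 11.80 and 11.90 in the control livers (-0.48 ± 0.09 SE, limma adjusted p = 0.0291, n = 2 each). The other 2 carry the name initiation factor 2C 2, an older name of Argonaute 2, which acts in RNA silencing and is no initiation factor, and they differed by -0.73 and -0.69. Of 10 probe sets for elongation and release factors 1 was called, elongation factor 1 epsilon 1, a component of the multi-synthetase complex, at 0.49, while its other probe set differed by 0.13. Neither of the 2 tested mitochondrial translation factors was called.

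Of 23 probe sets named for ribosome assembly and the nucleolus 8 (34.8%) were called, 3 higher and 5 lower, against 23.8% of the whole array, with a list median of -0.21. Nucleolin, a major nucleolar protein in ribosomal RNA processing, read 7.97 and 8.17 in the clenbuterol livers, against 7.13 and 7.23 in the control livers on 1 probe set (0.89 ± 0.11 SE, limma adjusted p = 0.012, n = 2 each). Its other probe set was not called (0.17 ± 0.37 SE). The probe set for the nucleolar protein that binds the FHA domain of MKI67 was 0.80 higher on 1 probe set and differed by 0.21 on another that was not called, and nucleolar protein 7 differed by -0.72. The largest lower difference, -1.23 for nucleophosmin/nucleoplasmin 3, belongs to a probe set that read 3.59 and 3.47 in the clenbuterol livers, against 4.91 and 4.61 in the control livers, so it passed the filter through its control values alone. Ribosome binding protein 1 and nucleolar and spindle associated protein 1, both called and matched by name, are not assembly factors.

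Of 36 tested probe sets for aminoacyl-tRNA synthetases, the enzymes that load transfer RNA, 9 (25%) were called, 5 higher and 4 lower, close to the 23.8% of the whole array, with a list median of -0.02. One of the 5, a glycyl-tRNA synthetase probe set, passed the filter through its clenbuterol values alone, so it had to differ. Cysteinyl-tRNA synthetase read 5.61 and 5.61 in the clenbuterol livers, against 4.82 and 4.82 in the control livers. For aspartyl-tRNA synthetase 1 of 3 probe sets was called, with a mean of 6.95 in the clenbuterol livers, against 6.03 in the control livers, and the other 2, not called, differed by -0.51 and 0.15. For the bifunctional glutamyl-prolyl-tRNA synthetase 2 of 3 probe sets were called lower, one at 9.48 and 9.76 in the clenbuterol livers, against 10.41 and 10.37 in the control livers (-0.76 ± 0.12 SE, limma adjusted p = 0.0204, n = 2 each). The other lower one differed by -0.47, and the one not called by 0.56 (limma adjusted p = 0.0548). RNA polymerase I, which transcribes ribosomal RNA, had 3 tested probe sets, of which 2 were called higher (11.4% of the whole array was). These were the RPA39 subunit, by 0.76, and polypeptide D, by 0.42, while polypeptide B differed by 0.02 and was not called.

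Marker genes of other liver cells moved in the same arrays. Over the whole array 23.8% were called, so single calls in these short lists say little. None of the 5 tested hepatocyte markers was called, and their summed level was 17.1 on every array. Of the 5, ALB, TTR, APOA1 and TF lay near the top of the array's range of 15.6, so this sum was not read as a measure of hepatocyte content. Of 3 macrophage markers 2 were called higher, with a summed log2 level of 12.47 and 12.46 in the clenbuterol livers, against 11.98 and 12.01 in the control livers. Of 7 probe sets for stellate cells and fibroblasts 4 were called higher and 1 lower, with sums of 13.52 and 13.48 in the clenbuterol livers, against 13.18 and 13.17 in the control livers. Of 3 T and NK cell markers 1 was called higher, of 3 endothelial markers 1 higher and 1 lower, and the 1 cholangiocyte marker lower, while no B cell, plasma cell or erythroid marker was tested. Their part in the ribosomal protein differences was not tested.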

How the data were processed

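The authors' deposited table holds log2 values from GCRMA, as its headers and the submitters' processing notes say (version and settings: not given in the sources used here). The same deposited table gives the authors' p-value and another column with a 0 or 1 flag, per the file headers. The series value table, also deposited, holds scaled linear intensity values, made in a way not given in the sources used here, and was used as log2 for the sexes, pairs and array controls. The labels' protocols put 6 ug of total RNA into each labelling. The number of arrays limits the precision.

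The limma package (3.58.1, R 4.3.3; lmFit, eBayes) was run on all 11931 tested probe sets, group alone, and for the sexes group plus sex. The sex comparison had been planned on GCRMA values, whose columns carry no sex. The fits were tested on simulated data. Symbols came from the descriptions, and 140 of 142 genes were found in the pig gene table (Sscrofa11.1, names only). Members, lists and alternatives were chosen with earlier results of these data known. Named were all called members, the smallest p, brightest and dimmest of each class, genes with 3 probe sets, stalk and ubiquitin fusion proteins, and up to 3 of each other list; the rest of the named genes (such as RPL13A, RPL23, RPL5, RPL11, the bright RPS6, MRPL55, MRPL52, MRPL36 and nucleolin) were chosen after their values were seen. Alternatives were other filters, scalings, values, a trended eBayes, subsets of members and leaving out each array. For 1 gene the values are not reported here.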

Additional observations from a re-analysis of the deposited data

Results flagged for a closer look

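The median difference of the 78 mitochondrial probe sets in the log2 intensities was 0.0167 between the males and -0.000343 between the females. It is listed because the sign differs between the sexes. Each sex has 1 pig a group, so the contrast of the pairs was not tested.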

How the results depend on the processing

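With 2 arrays a group the number of calls depended on the setting. Over all tested probe sets the 2843 calls became 1326 in the series' intensities, 1054 with the replicate number as a block in those intensities, and 579 to 1213 with 1 array left out. Cytosolic calls went from 3 to 1 in the intensities, 1 with the replicate block, 7 with a trended eBayes, 0 to 1 with 1 array left out, 0 of 24 without members named by similarity and 1 of 1 with transcript number 2 or more only. Mitochondrial calls went from 14 to 4 in the intensities, 1 with the replicate block, 9 without a filter, 23 with spike scaling, 0 to 3 with 1 array left out, 1 of 2 without members named by similarity, 9 in plain _at probe sets, and 9 and 5 by transcript number 1 and 2 or more. Without array p105f none of the 17 called members kept its call, without p134pc 1, without p135pc 3 and without p101f 4, while the lone array left in a group is assumed to vary like the others. Of the 17, 13 kept their direction under every alternative run and none its call; MRPL3 lost it only when an array was left out. Outside the block setting and the comparisons by sex, the replicate numbers were used as names only. The deviations of same-numbered arrays correlated at 0.18, with 2 pairs. Scaling the intensities on 18 hybridisation spike probe sets put the median over all tested probe sets at 0.36 (3098 higher, 256 lower), that of cytosolic members to 0.35 and of mitochondrial members to 0.40, which is -0.01 and 0.04 relative to all. On that scale 23 of 78 mitochondrial members were called, beside 3354 of all 11931, so the mitochondrial share was not the smaller one there. There, too, 6 named members turned positive, all of them below the median of all. These were RPS13 (0.21), MRPL33 number 1 (0.15), MRPL17 (0.0424), MRPS24 (0.14), RPS21 (0.27) and RPL37 (0.0394). Both medians moved with the choice of members. The mitochondrial one went to 0.41 over 2 probe sets named directly and to 0.32 with transcript number 2 or more. The cytosolic one went to -0.96 on its only probe set with transcript number 2 or more. That RPL10A probe set passed the filter through its control values alone, so it had to differ. No member was called between the sexes in any setting.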

Other observations

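Control probe sets for ribosomal RNA differed between the replicate numbers, which are also the sexes. One 18S probe set read 6.73 in the male and 11.98 in the female clenbuterol liver, against 6.97 in the male and 11.84 in the female control liver (log2 intensity). The other 18S probe set ran the opposite way, with 11.1 and 8.83 in the clenbuterol livers, against 11.1 and 9.25 in the control livers. A 28S probe set read 10.7 and 13.9 in the clenbuterol livers, against 11.3 and 13.9 in the control livers.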
